A study of Mus musculus with 24 samples.

Results

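Transcripts of 6 genes that sit around the H3K9 methyltransferase machinery were followed by RNA-seq in mouse embryonic fibroblasts (MEFs): Prdm2, Mecom, Prdm16, Atf7ip, Wiz and Zfp644. They were chosen by name, as genes coding for further candidate H3K9 methyltransferases or for cofactors of such enzymes, and each corresponds to 1 of the 47937 genes counted. None of the 6 was a target of the mutations in these cells. The cells carry conditional Eset1 (Setdb1) alleles and a tamoxifen-inducible Cre, and all conditions derive from this background. The methods of the study add that, once genes had been disrupted by CRISPR/Cas9, an inducible Cre construct with puromycin resistance was put in again. The lines were then kept on puromycin. The step is described for cells after gene disruption. Untreated cells of the parental clone are WT. The same clone after 4-hydroxytamoxifen (4-OHT, 1 µM) is E1 (Eset1-null). In a first series, CRISPR/Cas9 disruption of Suv39h1 and Suv39h2 followed by 4-OHT gave E1 S1S2, and further disruption of Eset2 (Setdb2), G9a (Ehmt2) and Glp (Ehmt1) gave 6KO1, in which all 6 SET-domain enzymes are mutated. In a second series, a clone with Eset2 disrupted was used without 4-OHT (E2) and with it (E1E2), and then received G9a and Glp mutations (E1E2 G9Gl) and Suv39h1 and Suv39h2 mutations (6KO2). Each of the 8 conditions had 3 libraries, described in the methods of the study as biological replicates. WT and E1 come from 1 clone, as do E2 and E1E2, and the other 4 conditions are 1 clone each, so that outside these pairs a difference between conditions cannot be told apart from a difference between clones. The state with all 6 enzymes mutated is held by 2 clones of separate origin.

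Methylation of histone H3 at lysine 9 marks heterochromatin and is laid down by SET-domain enzymes, which work in complexes. Members of the PRDM family carry a related PR domain next to zinc fingers. Prdm2 (RIZ1), Mecom (which codes for EVI1 and the longer MDS1-EVI1, also called PRDM3) and Prdm16 have been described as H3K9 methyltransferases, and Prdm16 is best known as a determinant of brown fat. Atf7ip (MCAF1) is the partner of Setdb1 that keeps the enzyme in the nucleus and stable. Wiz and Zfp644 are zinc-finger proteins that bind the G9a and Glp heterodimer and bring it to chromatin.

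The genes lie on 5 chromosomes of GRCm38. Prdm2 spans chr4:143107391-143212995, Mecom chr3:29951296-30548008, Prdm16 chr4:154316125-154636873, Wiz chr17:32354055-32389439 and Zfp644 chr5:106616739-106697287, all on the minus strand, and Atf7ip spans chr6:136506167-136610862 on the plus strand. RefSeq start sites with upstream sequence were at hand for 5 of the 6 genes. The stretches of 3 genes are shown, for Atf7ip, whose RNA rose in every mutant condition, for Mecom, whose 21 mutant libraries all lay below WT, and for Prdm16, which was hardly detected. They are the parts of the 250 bases before the RefSeq start (GRCm38.p6) that lie outside annotated exons. These are 201 bases at chr6:136518601-136518801 on the plus strand for Atf7ip, 187 bases at chr3:30509823-30510009 on the minus strand for the upstream of the 2 Mecom starts, and 250 bases at chr4:154636874-154637123 on the minus strand for Prdm16. Capitals mark CCAAT boxes (CCAAT, or ATTGG on the other strand) and GC boxes (GGGCGG, or CCGCCC on the other strand).
Atf7ip: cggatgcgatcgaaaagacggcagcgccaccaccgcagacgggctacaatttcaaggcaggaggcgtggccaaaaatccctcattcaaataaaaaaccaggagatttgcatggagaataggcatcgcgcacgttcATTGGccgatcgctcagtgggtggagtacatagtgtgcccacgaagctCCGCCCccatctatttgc
Mecom: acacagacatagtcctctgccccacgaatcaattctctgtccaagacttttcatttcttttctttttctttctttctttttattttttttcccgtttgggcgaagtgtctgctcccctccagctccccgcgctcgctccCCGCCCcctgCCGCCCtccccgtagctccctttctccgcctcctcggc
Prdm16: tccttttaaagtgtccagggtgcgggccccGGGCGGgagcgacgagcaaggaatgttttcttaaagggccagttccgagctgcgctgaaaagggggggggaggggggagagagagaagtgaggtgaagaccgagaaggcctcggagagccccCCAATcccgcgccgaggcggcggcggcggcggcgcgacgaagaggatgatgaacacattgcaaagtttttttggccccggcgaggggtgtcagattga
The Atf7ip stretch holds 1 CCAAT box and 1 GC box, that of Mecom 2 GC boxes and no CCAAT box, and that of Prdm16 1 of each. Of the 32851 promoter windows of 250 bases in the RefSeq table, 33.8% hold a CCAAT box and 32.7% a GC box on either strand, so these letters are common. In the whole 250 bases, CpG was found 20 times before Atf7ip, 14 times before Mecom and 22 times before Prdm16, against a median of 6 over all windows. The RefSeq start of Atf7ip lies inside the annotated gene, since 1 of its 12 annotated transcripts begins 12684 bases further upstream, while 4 others begin within 500 bases of it. The Mecom stretch also lies inside its annotated gene, which begins further upstream, at chr3:30548008.

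Libraries held 19541909 to 31489070 counts on genes. WT replicate 2 stood apart, with a chi-square per gene of 64.6 against WT replicate 1 where the other pairs of libraries of 1 condition, those with WT replicate 2 aside, gave 2.2 to 23.8. It had the lowest WT value of Prdm2, Atf7ip and Wiz and the highest of Mecom and Zfp644. Results that rest on it are given without it as well, and for Mecom as ranges over alternatives that include leaving it out. Setdb1 RNA was below WT in E1 (log2 fold change -0.57, edgeR adjusted p = 6.82e-06), the condition in which it was deleted, and also in the E2 libraries, which are labelled as not treated (-0.31, adjusted p = 0.00261), and E2 and E1E2 could not be separated by it (0.01, adjusted p = 0.992). The 7 fibroblast markers were read in every library, apart from Thy1, which was at 0 in 4. Their summed levels were 6603 to 8402 CPM (counts scaled to a common library total) in WT, 3679 to 4170 CPM in 6KO1 and 5510 to 9186 CPM in the other conditions. In 6KO1 7 of 7 were lower past the adjusted p, as were 30.3% of all genes. The number lower was 5 in 6KO2 and E1E2, 4 in E1 S1S2, 3 in E1 and E2 and 0 in E1E2 G9Gl. The number higher was 3 in E1E2 G9Gl and 1 in E1 and E1 S1S2. The summed endothelial markers were 0.436 to 0.589 CPM in WT, 3.75 to 4.34 in 6KO1, 3.80 to 5.10 in 6KO2 and 2.61 to 3.15 in E1E2 G9Gl. They were 1.29 to 1.42 CPM in E1 S1S2, 0.849 to 1.25 in E1, 0.661 to 1.14 in E1E2 and 0.283 to 0.470 in E2. Of the 4 epithelial markers 2 were tested, and they went in different directions. Krt8 was called higher than WT in all 7 mutant conditions (log2 fold change 1.97 to 4.07). The other was called lower in E1 S1S2, 6KO1, E2, E1E2 G9Gl and 6KO2. Epithelial markers other than Krt8 had at most 14 counts in any library. The neural marker list, nearly all Tubb3, ran from 19.6 to 142.6 CPM against 26.7 to 32.6 in WT. Hbb-bs had no count in any library and the skeletal muscle markers Myod1 and Myog reached at most 9 counts. The summed blood markers were 19.0 to 21.5 CPM in 6KO1 and 2.09 to 5.79 CPM in the other conditions, where Cd68 and Ptprc gave all of the signal. The part of these differences in the results was not tested.

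Atf7ip was the member that changed most. Its RNA was about 3-fold to 4-fold higher than WT in every mutant condition, and Mecom was lower than WT in 6 of the 7, E1 S1S2 being the exception. Prdm2 was higher in the 3 conditions with Suv39h1 and Suv39h2 mutated, Wiz was highest in 6KO2, and Zfp644 stayed within a narrow range. Values below are normalized read counts, that is, counts scaled to a common library size with TMM factors. Differences are log2 fold changes with their standard error (SE) from the quasi-likelihood test of edgeR, fitted to the 24 libraries together, and p-values are adjusted with the Benjamini-Hochberg method over 18565 genes. A gene is called where the change is at least 2-fold and the adjusted p at most 0.01.

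**Figure D1:**
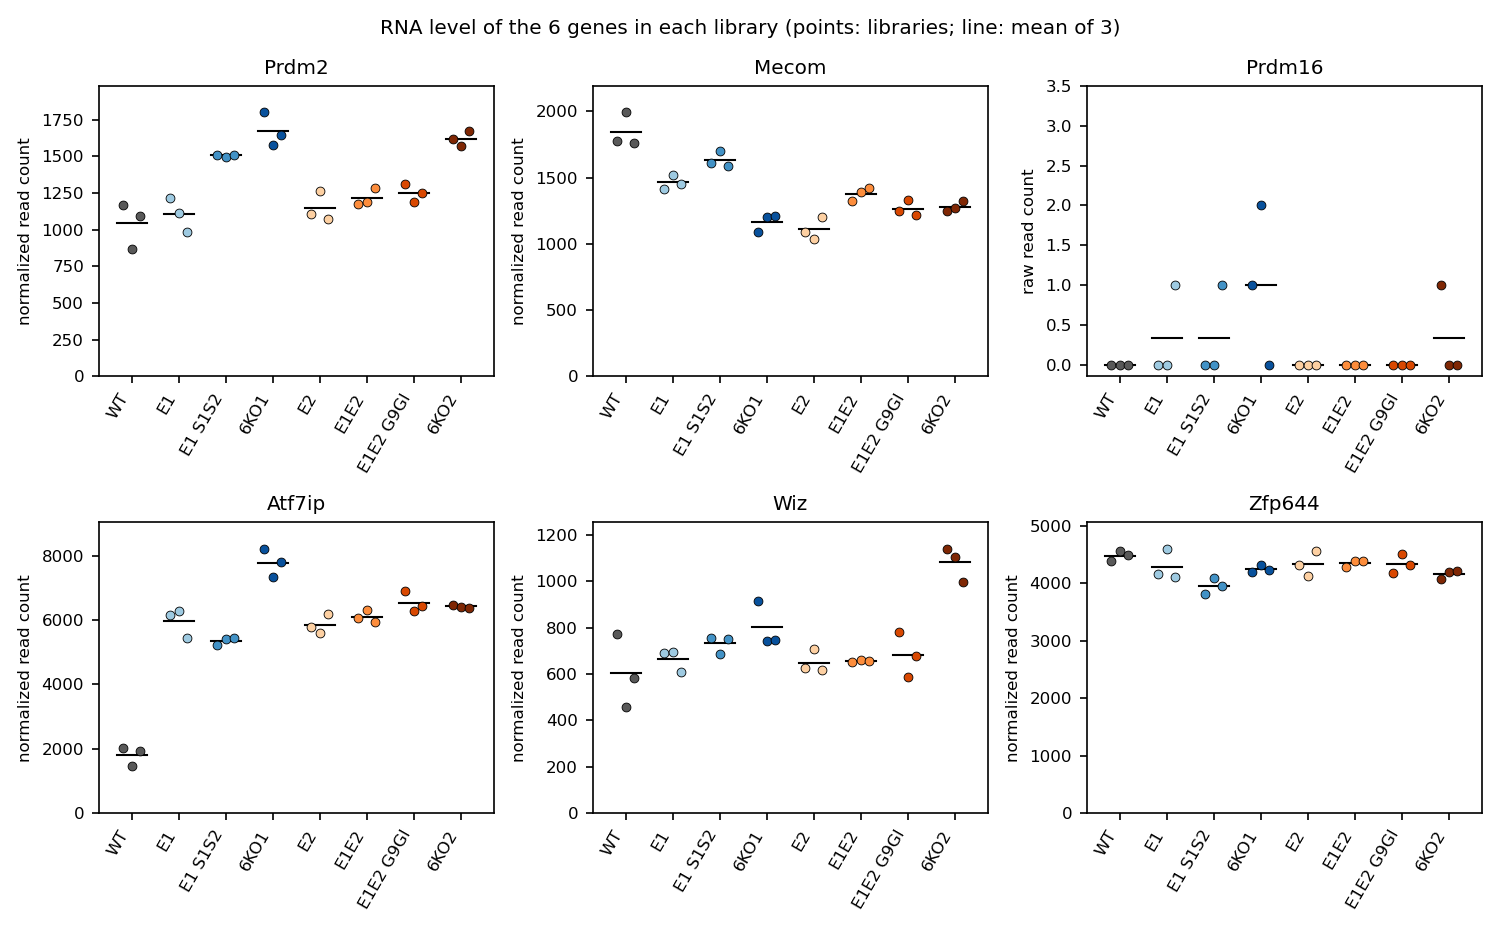
Normalized read count (raw read count for Prdm16) of each gene, on the vertical axis, in the 24 libraries, grouped by condition; points are libraries and lines are means of 3. Atf7ip lies between 1457 and 2008 in WT and between 5210 and 8210 in the 21 other libraries, and Prdm16 has at most 2 reads.

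In each of the 7 mutant conditions, 1 of the 5 members tested was called against WT, and it was Atf7ip. Over all genes, the share called was 30.9% in 6KO1, 25.2% in E1E2 G9Gl, 20.7% in 6KO2, 11.8% in E1 S1S2, 8.73% in E1E2, 6.11% in E2 and 4.26% in E1. With the adjusted p alone, without the 2-fold limit, the members past the threshold were 4 of 5 in the 6KO lines, 3 of 5 in E1 S1S2 and 2 of 5 in the other 4 conditions. The corresponding shares of all genes were 66.2% in 6KO1, 59.1% in E1E2 G9Gl, 54.5% in 6KO2, 41.8% in E1 S1S2, 33.2% in E1E2, 27% in E2 and 13.3% in E1. In 6KO1, 6KO2 and E1E2 G9Gl a change past the adjusted p was therefore the common case for any gene. The median log2 fold change of the 5 members was 0.08 in E1, 0.41 in 6KO1 and 0.63 in 6KO2, against -0.01, 0.06 and 0.04 for all tested genes. All of these comparisons share the same 3 WT libraries.

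**Figure D2:**
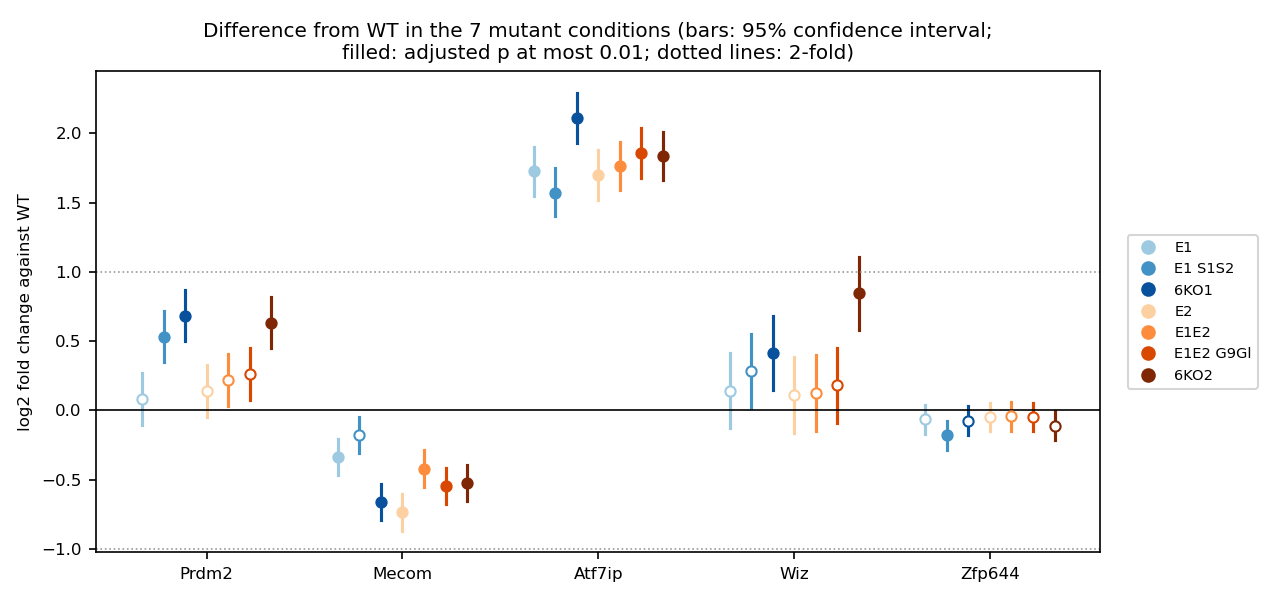
Log2 fold change against WT (vertical axis) of the 5 tested members in the 7 mutant conditions, with 95% confidence intervals as bars; filled points have an adjusted p of at most 0.01 and dotted lines mark 2-fold. Atf7ip lies at 1.57 to 2.11 and Mecom at -0.74 to -0.18.

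The PR domain genes are described first. Prdm2 had normalized counts of 1171, 867 and 1093 in the 3 WT libraries and 1214, 1115 and 986 in E1. In E1 S1S2 it had 1510, 1498 and 1509, and all 3 lay above every WT library, as did 26.5% of all genes. In 6KO1 the libraries gave 1799, 1578 and 1647, and in 6KO2 they gave 1617, 1567 and 1671. The 9 libraries of the 3 conditions with Suv39h1 and Suv39h2 mutated thus ran from 1498 to 1799, while the 15 libraries of the other 5 conditions ran from 867 to 1312, and the ranges did not overlap, as for 1.01% of all genes tested in this direction. This split was noticed in these data and is a description. Against WT the log2 fold change was 0.68 (SE 0.09, edgeR adjusted p = 3.63e-07) in 6KO1, 0.63 (SE 0.09, adjusted p = 1.86e-06) in 6KO2 and 0.53 (SE 0.09, adjusted p = 2.71e-05) in E1 S1S2, all under 2-fold. It was 0.26 in E1E2 G9Gl, 0.22 in E1E2, 0.14 in E2 and 0.08 in E1, none past the threshold, although the value in E1E2 G9Gl passed it in 5 of 13 alternatives, DESeq2 among them (0.30, adjusted p = 0.00507). The steps that added the Suv39h1 and Suv39h2 mutations do not use the WT libraries. Prdm2 was higher in E1 S1S2 than in E1 by 0.45 (SE 0.09, adjusted p = 0.000252), a step in which 33.5% of all genes passed the adjusted p, and higher in 6KO2 than in E1E2 G9Gl by 0.37 (SE 0.09, adjusted p = 0.0012), where 43.6% did. Without E1E2 G9Gl replicate 2 the second of these was 0.32 with an adjusted p of 0.0164. Without WT replicate 2 the differences from WT were 0.56 in 6KO1, 0.51 in 6KO2 and 0.41 in E1 S1S2, each still past the threshold. The median change of all genes on chromosome 4 was 0.08 in 6KO1, 0.16 in 6KO2 and 0.02 in E1 S1S2.

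Mecom showed the opposite direction. The WT libraries had normalized counts of 1776, 1992 and 1762, and all 21 libraries of the other conditions lay below them, between 1034 and 1700. The E2 libraries were the lowest, at 1089, 1034 and 1204, followed by 6KO1 at 1091, 1201 and 1212. E1 S1S2 was nearest to WT, at 1609, 1700 and 1585. The share of all genes that lay wholly below WT was 32.7% in 6KO1, 32.1% in E1E2 G9Gl, 28.7% in 6KO2, 27.9% in E1 S1S2, 24.2% in E1E2, 20.6% in E2 and 12.9% in E1. The log2 fold change was -0.74 in E2 (SE 0.06, edgeR adjusted p = 4.15e-09), -0.66 in 6KO1 (SE 0.06, adjusted p = 2.71e-09), -0.53 in 6KO2, -0.54 in E1E2 G9Gl, -0.42 in E1E2 and -0.33 in E1, each past the adjusted p and none 2-fold. In E1 S1S2 it was -0.18, with an adjusted p of 0.0207. Over 13 alternatives, that without WT replicate 2 among them, it ran from -0.80 to -0.68 in E2, -0.70 to -0.57 in 6KO1 and -0.36 to -0.27 in E1. The counts pool all annotated transcripts of Mecom, EVI1 and the longer form alike, and changes of single forms were not tested. The fall in 6KO1 went against its chromosome, since the 1095 genes tested on chromosome 3 had a median change of 0.38 there.

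Steps within the series moved Mecom as well. From E1 S1S2 to 6KO1 it fell by 0.48 on the log2 scale (SE 0.06, edgeR adjusted p = 6.28e-07), a step in which 53.3% of genes passed. From E2 to E1E2, on 4-OHT, it rose by 0.32 (SE 0.06, adjusted p = 0.000957), in a comparison where 11.9% of genes passed, and without E2 replicate 2 the value was 0.27 with an adjusted p of 0.0113. In the parental clone 4-OHT went with a change of -0.33 (E1 against WT). The antisense gene Mecomos shares 81 exon bases with Mecom and had 1 to 11 counts per library. Reads of overlapping genes could be shared between them, since the strand setting of the counting is not given in the sources used here. Of 12 other tested genes starting within 500 kb of the Mecom start, 2 were called higher and 5 lower in 6KO1. Over all genes the shares were 20.6% and 10.2%. These 5 (Gm37652, Gm38362, Gm10258, Gm38197 and Gm38066) are gene models inside Mecom, on its strand, without shared exon bases. Their log2 fold changes were -3.69 to -6.94 in 6KO1 and -1.81 to -2.70 in 6KO2. In E2, where 6.11% of all genes were called in either direction, these 5 were also called lower, at -1.07 to -2.60. In the remaining conditions their values were -0.47 to -1.705. Their relation to Mecom was not tested.

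Prdm16 was close to absent. It had 6 counts in all, no more than 2 in any library, and none in 19 of 24. The counts above 0 were 1 in E1 replicate 3, 1 in E1 S1S2 replicate 3, 1 and 2 in 6KO1 replicates 1 and 2, and 1 in 6KO2 replicate 1. All 9 libraries of E2, E1E2 and E1E2 G9Gl and all 3 of WT were at 0. A count of 0 allows up to 3 counts, which at these depths is 0.0927 to 0.153 CPM, a limit that covers counting error only. Prdm16 did not pass the filter on low counts and was not tested, and no difference between conditions was detectable at this depth. Of the brown fat markers, Ucp1 and Adipoq had 2 and 11 counts over all 24 libraries, while Pparg, which is not restricted to that tissue, had 2522 and was called higher than WT in 6KO1 (2.68) and E1E2 G9Gl (3.15) and lower in E1 S1S2 (-5.32).

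Atf7ip, the Setdb1 cofactor, had normalized counts of 2008, 1457 and 1939 in WT. After 4-OHT the E1 libraries gave 6143, 6280 and 5441, each well above the highest WT library. In E1 S1S2 the values were 5210, 5422 and 5440, and in 6KO1 they were 8210, 7340 and 7803, the highest of all. The E2 libraries, labelled as untreated, gave 5778, 5606 and 6176 and lay within the range of the 4-OHT-treated ones. E1E2 had 6074, 6303 and 5947, E1E2 G9Gl 6889, 6265 and 6422, and 6KO2 6475, 6409 and 6385. No library of a mutant condition overlapped WT. Over all genes, 39.1% lay wholly above WT in 6KO1, 35.4% in E1E2 G9Gl, 34.7% in 6KO2, 26.5% in E1 S1S2, 24.2% in E1E2, 17.6% in E2 and 14.3% in E1.

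Against WT, Atf7ip was 3.31-fold higher in E1 (log2 fold change 1.73, SE 0.09, edgeR adjusted p = 2.65e-13) and 2.98-fold higher in E1 S1S2 (1.57, SE 0.08, adjusted p = 4.15e-13). It was 4.32-fold higher in 6KO1 (2.11, SE 0.09, adjusted p = 5.44e-16) and 3.57-fold higher in 6KO2 (1.84, SE 0.09, adjusted p = 1.41e-14). E2, E1E2 and E1E2 G9Gl lay between, at 1.70, 1.76 and 1.86. Without WT replicate 2, the lowest WT library, the values ran from 1.44 in E1 S1S2 to 1.98 in 6KO1, with 1.59 in E1 and 1.57 in E2. Genes on chromosome 6 had a median change of 0.31 in 6KO1, 0.21 in 6KO2 and 0.05 in E1.

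Atf7ip was thus already higher than WT in E1 and in E2, and of the further steps inside the series only that which led to 6KO1 passed the adjusted p. It differed by -0.15 between E1 S1S2 and E1 (95% interval -0.32 to 0.02, edgeR adjusted p = 0.139), by 0.10 between E1E2 G9Gl and E1E2 (-0.07 to 0.27, adjusted p = 0.323) and by -0.02 between 6KO2 and E1E2 G9Gl (-0.19 to 0.15, adjusted p = 0.835). From E1 S1S2 to 6KO1, a step that added the Eset2, G9a and Glp mutations and changed the clone, it was higher by 0.54 (SE 0.08, adjusted p = 5.05e-06). In this step 53.3% of all genes passed the adjusted p, and genes on chromosome 6 had a median change of 0.24. Atf7ip was lower in 6KO2 than in 6KO1 by 0.28 on the log2 scale (log2 fold change -0.28, SE 0.08, adjusted p = 0.0056), in a comparison where 49.2% of genes passed. This difference no longer passed the adjusted p without 6KO1 replicate 1 or 3 and without any 1 of the 6KO2 libraries (adjusted p = 0.0152 to 0.0369).

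The 2 conditions without 4-OHT and their treated counterparts allow the change on 4-OHT to be compared between clones. In the parental clone Atf7ip rose by 1.73 from WT to E1. In the Eset2-mutant clone it differed by 0.06 between E2 and E1E2 (95% interval -0.11 to 0.23, edgeR adjusted p = 0.682). The difference between these changes was -1.66 (SE 0.12, adjusted p = 3.62e-10). For Mecom it was 0.65 (SE 0.09, adjusted p = 1.59e-05), a fall in the parental clone against a rise in the other. Over 19 alternatives the Mecom value ran from 0.59 to 0.71. Of the 5 members, Atf7ip was called in this test and Mecom passed the adjusted p alone, where 3.42% and 8.89% of all genes did. Prdm2, Wiz and Zfp644 had differences of -0.004, -0.13 and 0.07, none past the threshold. Setdb1 RNA did not separate E2 from E1E2 either. In the parental clone, loss of Eset1 and exposure to 4-OHT cannot be told apart.

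**Figure D3:**
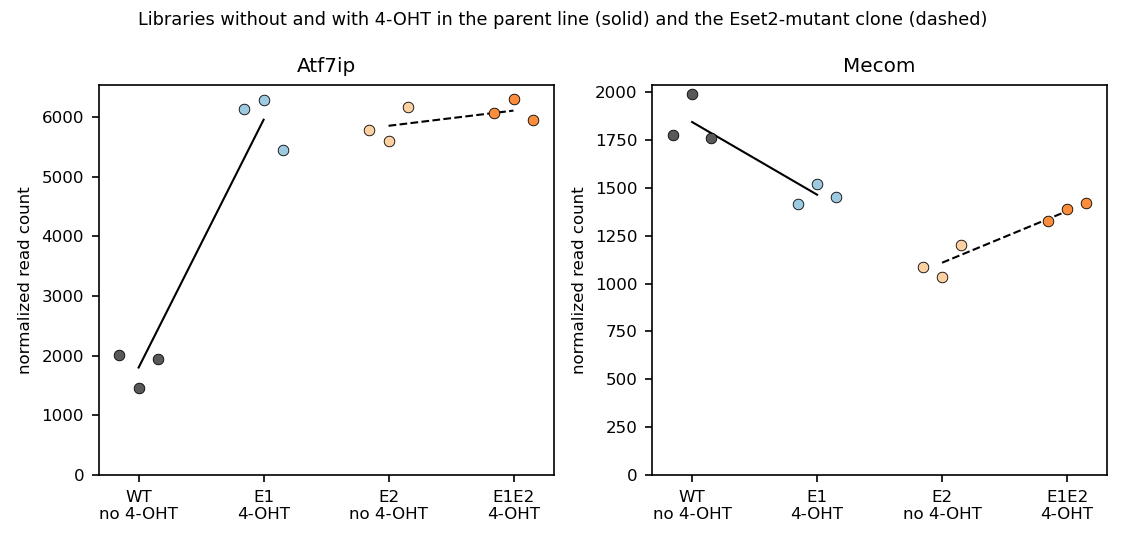
Normalized read count (vertical axis) of Atf7ip and Mecom in libraries without and with 4-OHT; points are libraries, and lines join the means of 3 in the parental clone (solid) and in the Eset2-mutant clone (dashed). The Atf7ip means are 1801, 5954, 5853 and 6108 from left to right, so that the rise is seen in the parental clone.

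Around Atf7ip, 10 other tested genes start within 500 kb. In E1, 1 of them was called higher and none lower, and in 6KO1 2 were higher and 2 lower. The gene that was called higher in E1 was Gm44401, a gene model of unknown role on the same strand. Its log2 fold change was 2.32 (edgeR adjusted p = 0.00332). It starts 114.5 kb downstream of the Atf7ip start, past the end of Atf7ip, which spans 104696 bases. In E1 S1S2 its value was 1.67 (adjusted p = 0.0219), and in 6KO1 it was 3.47 (adjusted p = 5.06e-07). It was also called higher in E2 (2.11), E1E2 (2.41), E1E2 G9Gl (2.49) and 6KO2 (3.04). Whether its reads come from Atf7ip transcripts was not tested. Gm44401 is named after its values were seen. The gene Gm44140, on the opposite strand at the start of Atf7ip, had no count in WT. Its few reads elsewhere, together with 83 shared exon bases, number at most 5 per library.

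Of the G9a and Glp cofactors, Wiz had normalized counts of 773, 457 and 581 in WT, the widest relative spread of a tested member. In 6KO2 it had 1141, 1108 and 999.7, all above the other 21 libraries, as were 3.32% of all genes tested. In 6KO1 it had 914, 742 and 748, which overlapped WT. The log2 fold change was 0.85 in 6KO2 (SE 0.13, edgeR adjusted p = 5.40e-06), under 2-fold, and 0.41 in 6KO1 (SE 0.13, adjusted p = 0.00651). Wiz was also higher in 6KO2 than in E1E2 G9Gl by 0.67 (SE 0.13, adjusted p = 0.000137) and higher than in 6KO1 by 0.43 (SE 0.13, adjusted p = 0.00525), the latter lost without 6KO1 replicate 2 or 3 and without 6KO2 replicate 1 or 2 (0.38 to 0.42, adjusted p = 0.017 to 0.0317). The differences of 1.08-fold to 1.22-fold from WT in the other 5 conditions did not pass the threshold, although E1 S1S2 passed it in 2 of 13 alternatives (0.50 without WT replicate 1, adjusted p = 0.000942) and E1E2 G9Gl in 1 (0.40 without that library, adjusted p = 0.00502). Chromosome 17 as a whole had a median change of 0.29 in 6KO1 and 0.27 in 6KO2. The value in 6KO1 rests on few libraries, since it was 0.24 (adjusted p = 0.0576) without WT replicate 2, 0.39 (adjusted p = 0.0238) without WT replicate 3, 0.30 (adjusted p = 0.0659) without 6KO1 replicate 1 and 0.44 (adjusted p = 0.0103) without 6KO1 replicate 3. In 6KO2 it was 0.68 without WT replicate 2 and 1.06 without WT replicate 1, both past the adjusted p. The antisense gene Gm26858 covers 22.1% of the Wiz exon bases and had 0 to 2 counts per library.

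Zfp644 varied little. Its condition means lay between 3959 (E1 S1S2) and 4481 (WT), and single libraries ran from 3818 to 4599. The WT libraries had 4395, 4559 and 4489. Those of E1 S1S2 had 3818, 4100 and 3960, all below WT, as for 27.9% of all genes. This was the member's only difference past the threshold, at -0.18 (SE 0.05, edgeR adjusted p = 0.0048), and it lost significance in 8 of 13 alternatives, among them without WT replicate 2 (-0.16, adjusted p = 0.0102). In 6KO1 and 6KO2 the log2 fold changes were -0.08 (95% interval -0.18 to 0.03) and -0.11 (-0.21 to -0.004), while the median change of chromosome 5 was 0.13 and 0.23.

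Along the steps inside each series, no member was called in any of the 6 comparisons between mutant conditions with edgeR or with DESeq2. All genes were called at 8.06% from E1 to E1 S1S2, 21.3% from E1 S1S2 to 6KO1, 2.97% from E2 to E1E2, 21.6% from E1E2 to E1E2 G9Gl, 16.3% from E1E2 G9Gl to 6KO2 and 16.9% between 6KO1 and 6KO2. The members with an unadjusted p under 0.05 were 3, 2, 1, 0, 2 and 3 of 5 in the same order, where 50.8%, 66.7%, 30.4%, 65.8%, 59.5% and 63.4% of all genes had one. Adding G9a and Glp mutations to E1E2 was the step in which no member passed the adjusted p, where 53.4% of all genes did.

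Levels of different genes were compared per exon length, in CPM per kb. The length is that of all annotated exons of a gene merged, from 7420 bases for Prdm2 to 20726 for Atf7ip. The order of genes depends on this length, and which transcripts were in use was not tested. In WT the order was Zfp644 (12.6 ± 0.23, SD, n = 3), Mecom (5.86 ± 0.41), Prdm2 (5.55 ± 0.84), Atf7ip (3.43 ± 0.57) and Wiz (2.58 ± 0.68), with Prdm16 at 0. Mecom and Prdm2 did not differ beyond their spread, nor did Atf7ip and Wiz. In E1, Atf7ip at 11.3 ± 0.86 stood next to Zfp644 at 12.1 ± 0.76, within their spread, and it had passed Mecom and Prdm2. In 6KO1, Atf7ip came first at 14.8 ± 0.83 and Zfp644 second at 12 ± 0.19. In 6KO2, Wiz at 4.63 ± 0.32 stood above Mecom at 4.07 ± 0.13. Setdb1, the enzyme that Atf7ip binds, was at 8.81 ± 0.42 in WT, 5.94 ± 0.31 in E1 and 5.95 ± 0.22 in 6KO1 on the same scale. The order on this scale therefore turned from Setdb1 above Atf7ip in WT to Atf7ip above Setdb1 in E1 and 6KO1.

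**Figure D4:**
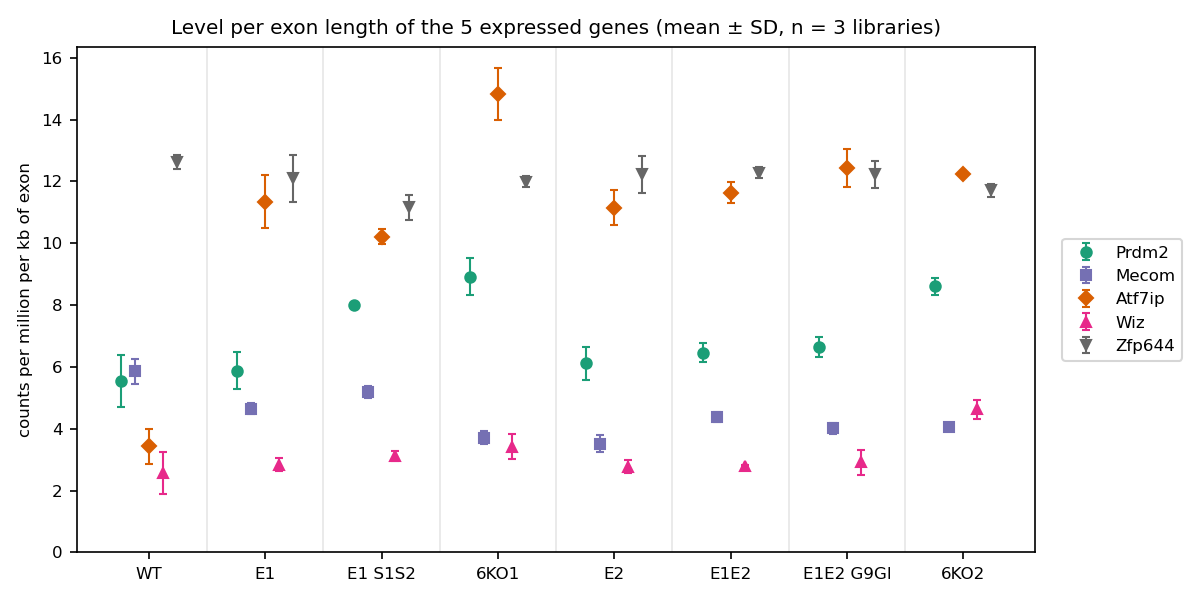
Level per exon length in CPM per kb (vertical axis, mean ± SD, n = 3) of the 5 expressed members in each condition. Atf7ip moves from 3.43 in WT to 14.8 in 6KO1, while Zfp644 stays between 11.2 and 12.6.

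Related genes were read in 3 lists. Of 12 other PR domain genes, 7 passed the filter and 0 to 2 were called higher and 0 or 1 lower than WT, depending on the condition. In 6KO1, Prdm8 was lower (log2 fold change -3.20, with 2 to 5 counts per library against 23 to 36 in WT), and Prdm9, the meiotic methyltransferase that sets recombination sites, and Prdm11 were higher (1.5 and 1.88). In 6KO2 none of the 7 was called by edgeR. Prdm9 was at 0.96 with an adjusted p of 1.25e-08, Prdm11 at -0.34, and 3 of the 7 passed the adjusted p alone.

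All 12 further partners of Setdb1 were tested. Resf1, which codes for a Setdb1-interacting factor in retroelement silencing, was called higher in every mutant condition, with a log2 fold change of 2.11 in E1, 2.72 in E2, 2.71 in 6KO1 and 2.03 in 6KO2. As for Atf7ip, the change on 4-OHT differed between the clones, by -2.06 (SE 0.10, edgeR adjusted p = 2.47e-13). Tasor, a subunit of the HUSH silencing complex, was at 0.85 in E1 and was called in 6KO1, at 1.36. Its HUSH partner Pphln1 was called lower in 6KO1 (-1.04). Atf7ip2, the paralogue of Atf7ip, was called higher in 6KO1 (5.53), where it had 119 to 131 counts per library against 1 to 4 in WT, and in 6KO2 it had 1 to 5 counts. Mbd1, a methyl-CpG binding protein that binds Atf7ip, was called in 6KO2 (1.41) and in E1E2 G9Gl (2.80, the largest of the 7 values) and was at 0.66 in 6KO1. The median over the list ran from -0.41 to 0.12 in the 7 conditions, and 1 to 3 genes were called higher and 0 or 1 lower. With the adjusted p alone, 5 of 12 were higher and 6 lower in 6KO1 and in 6KO2. Over all genes in 6KO1, 20.6% were called higher and 10.2% lower, and 35.9% and 30.3% passed the adjusted p alone in these directions. In 6KO2 the shares were 15.3% and 5.39%, and 29.5% and 25% with the adjusted p alone.

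Among 9 further partners of G9a and Glp, all tested, 0 or 1 were called in either direction. Zfp518a, a zinc-finger partner of the complex, was called higher in 6KO1 (1.03) and lower in E1 S1S2 (-1.66). Cdyl2, a chromodomain protein, was called lower in 6KO2 (-2.34), where it had 58 to 74 counts per library, and in E1E2 G9Gl, where it had 0 or 1 against 340 to 381 in WT, and it was at 0.99 in 6KO1. The medians of the list ran from -0.26 to 0.24.

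**Figure D5:**
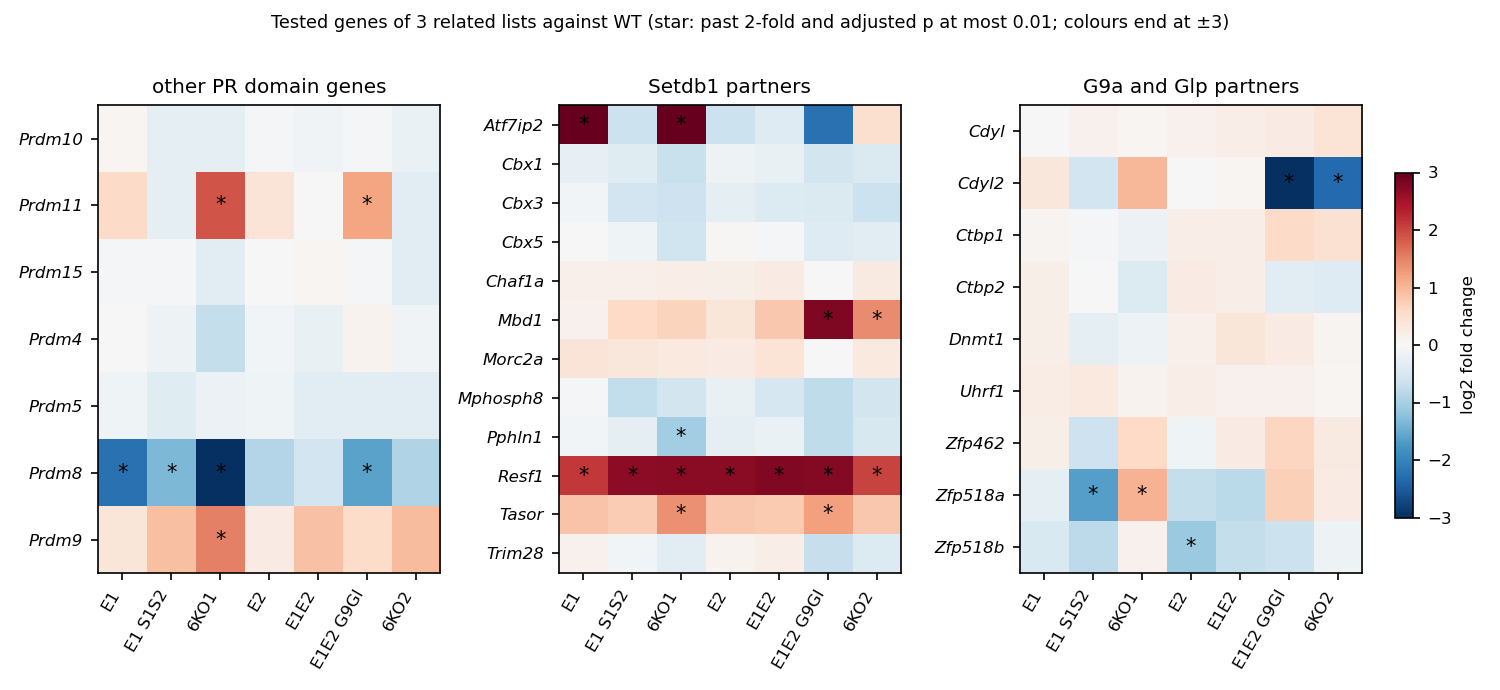
Log2 fold change against WT (colour, ending at ±3) of the tested genes of the 3 lists (rows) in the 7 mutant conditions (columns); stars mark genes past 2-fold and an adjusted p of 0.01. Resf1 is starred in each column, while Atf7ip2 is starred in E1 and 6KO1.

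Over the 24 libraries, the log2 level of each tested member was compared with that of 13895 genes. These correlations are descriptions, since libraries of 1 condition share their clone and all share the same scaling. Nearest to Prdm2 were Wdr81 (r = 0.948), Arhgap44 (0.936) and Zmiz2 (0.933), and near to Wiz were Faap100 (0.918) and Zmiz2 (0.9). Nearest to Mecom were the microRNA gene Mir5116 (0.892), Tpm2 (0.875) and Antxr1 (0.866), and nearest to Zfp644 were Slc25a36 (0.866), Zkscan1 (0.747) and Xrn1 (0.744). For Atf7ip they were Adam8 (0.974), Podxl (0.97) and Ulbp1 (0.954). Here the WT libraries lie apart from the rest, and Spearman's rho was lower, at 0.575, 0.560 and 0.473. For deviations from condition means, r with Mecom was 0.661 for Mir5116, 0.0771 for Tpm2 and 0.0106 for Antxr1. In the same way, r with Atf7ip was 0.459 for Adam8, 0.642 for Podxl and -0.181 for Ulbp1. The genes named with Prdm2, Wiz and Zfp644 had 0.525 to 0.925. Among the members themselves, Prdm2 and Wiz were the nearest pair (r = 0.813) and Mecom and Atf7ip the most opposed (r = -0.757), the latter again with WT apart.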

How the data were processed

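RNA was measured by paired-end RNA-seq in 24 MEF libraries, 3 in each of 8 conditions taken from the sample labels. The authors trimmed reads with cutadapt 1.8.1, aligned them to GRCm38 with STAR 2.5.2b, counted genes and repeats with TEtranscripts, and deposited whole-number counts without normalization. The strand setting is not given in the sources used here. Here, genes were filtered with filterByExpr by condition (18565 left), scaled with TMM factors (0.906 to 1.1), and tested with edgeR 4.0.16 (quasi-likelihood, all libraries, Benjamini-Hochberg). For CPM per kb, exon lengths came from GENCODE. Promoters came from RefSeq. The members and lists were chosen with earlier results of these data known. Beside the members, list genes called in 6KO1 or 6KO2 and the 3 genes most correlated with each member are named, except 1 that is not reported here. The genes near Atf7ip and Mecom were looked at after the values of these members were seen. The test was also run on simulated counts, where 26 of 50 genes changed 2-fold and 50 of 50 changed 3-fold were called. The simulation used the same spread for all genes and no outlying library, so it does not measure error rates in these data. Libraries of equal replicate number correlated above 0.1 at all 3 numbers in 2 of 28 pairs of conditions. These were WT with E1 S1S2 (0.14 to 0.184), which were compared here as unpaired, and E2 with 6KO2 (0.134 to 0.245), which were not compared. Alternatives were DESeq2 1.42.0, other factors and filters, fewer libraries, and a replicate block.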

Additional observations from a re-analysis of the deposited data

Results flagged for a closer look

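The change on 4-OHT differed between the parental clone and the Eset2-mutant clone for 2 members, by a test of the difference itself over the 4 conditions. For Atf7ip the change in the Eset2-mutant clone was lower by 1.66 on the log2 scale (log2 difference -1.66, edgeR adjusted p = 3.62e-10). All 3 E1 libraries lay above the WT libraries, as for 14.3% of all genes, while the E2 and E1E2 libraries overlapped. For Mecom the difference was 0.65 (adjusted p = 1.59e-05). All 3 E1 libraries lay below the WT libraries, as for 12.9% of all genes. Mecom rose from E2 to E1E2, a comparison in which 11.9% of all genes passed the adjusted p. What sets the E2 libraries apart from WT was not tested. Groups of 3 libraries were too small for a search for single outlying values.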

How the results depend on the processing

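The count of members called against WT was 1 in each mutant condition under every scaling, filter and choice of libraries, with 1 exception, 6KO2 without WT replicate 1, where it was 2 because Wiz passed 2-fold (1.06); leaving out 1 library gave 1 to 2 there. Without the 2-fold limit the count was 2 in E1, E2, E1E2 and E1E2 G9Gl, 3 in E1 S1S2, 4 in 6KO1 and 6KO2, 1 for E1 S1S2 against E1 and E1E2 against E2, and 2 for 6KO1 against E1 S1S2, 6KO2 against E1E2 G9Gl and 6KO2 against 6KO1. Over the other alternatives these counts ran from 1 to 2 in E1, 2 to 4 in E1 S1S2 and E1E2 G9Gl, 2 to 3 in E1E2, 3 to 4 in 6KO1, 1 to 2 for E1 S1S2 against E1 and 6KO2 against E1E2 G9Gl, 0 to 1 for E1E2 against E2 and 0 to 2 for 6KO2 against 6KO1 (0 without 6KO1 replicate 3 or 6KO2 replicate 1 or 2). Of 706 alternative values of the single members against WT, in the test of the 4-OHT difference, past the threshold or of Atf7ip, 656 kept their direction and side of the threshold, 27 lost significance, 9 gained it and 14 changed sign. The sign changes, all of values that never passed the threshold, were 0.0129 (6KO1) and 0.0233 (E1E2 G9Gl) for Zfp644 with only genes above a mean of 100 counts, -0.0348 for Prdm2 in E1 and -0.0255 (E1), -0.0546 (E2) and -0.0412 (E1E2) for Wiz without WT replicate 2, and 0.0172 for Atf7ip between 6KO2 and E1E2 G9Gl without E1E2 G9Gl replicate 1. With 1 library left out, these values ran up to 0.17 for Prdm2 in E1 and up to 0.36 (E1), 0.33 (E2) and 0.34 (E1E2) for Wiz, and from -0.0704 for Atf7ip. The 4-OHT difference ran from -0.096 to 0.11 for Prdm2, with 6 of the sign changes, and from -0.34 to 0.039 for Wiz, positive without WT replicate 2. Mecom in E1 lost significance with only the 6 libraries compared (-0.32, adjusted p = 0.0379). Atf7ip against WT stayed at 1.44 to 2.20 over all alternatives. With the replicate number as a block it was 1.73 in E1 and 2.12 in 6KO1, and in E1 S1S2, where the numbers correlate, 1.58; the block changed no call. Depth limits Prdm16, at 0 to 2 counts.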
